A study of Mus musculus with 8 samples.

Results

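Myelin and satellite glia transcripts were examined in hand-picked sensory neurons of mouse dorsal root ganglia (DRG), the ganglia that hold the cell bodies of sensory neurons beside the spinal cord. The set holds 8 genes chosen by their symbols: the myelin genes Mbp, Pmp22, Prx and Mag, the satellite glia genes Fabp7 and Apoe, and the glial lineage genes Sox10 and Cdh19. All 8 were found among the 43372 gene symbols of the count table, and 7 of them passed the filter on low counts that left 11828 genes for testing. Mag did not pass it.

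The study compared neurons labelled through a Cre driver at the Sst locus, which encodes somatostatin (genotype Ssttm2.1(cre)Zjh/J), with neurons labelled through a Cre driver at the Trpv1 locus, which encodes the heat and capsaicin channel (genotype Trpv1tm1(cre)Bbm/J). All mice were of the strain C57Bl/6, and all received a Cre-dependent adeno-associated virus into the peritoneum at postnatal day 2, either the green AAV9-CAG-FLEX-eGFP-WPRE or, in its place, the red virus AAV9-CAG-FLEX-tdTomato-WPRE. At 3 to 5 weeks of age, ganglia of both sexes were digested for 30 minutes, and 150 to 250 fluorescent cells per mouse were picked by hand. The label marks cells with Cre activity after the injection. There were 4 independent samples for each genotype, here the Sst libraries and the Trpv1 libraries. Each picking session held 1 sample of each genotype, and whether the replicate numbers follow the sessions could not be told. The sources used here do not say which of the viruses each sample received. Library totals ran from 7419027 to 12153109 counts. Counts of Y-linked genes lay in Trpv1 replicates 1 and 2 alone, so the sexes were not balanced between the genotypes.

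In peripheral nerve, Schwann cells wrap large axons in myelin, a stack of membrane held together by proteins such as those of Mbp and Pmp22. In the ganglion, satellite glial cells form an envelope around each neuronal cell body and carry Fabp7, a fatty acid binding protein, and Apoe, a lipid carrier. Both cell types come from the neural crest and depend on the transcription factor Sox10. Picked neurons can carry pieces of this envelope, so glial transcripts in such pools need not come from neurons. In pooled RNA, fewer glial cells and less RNA per glial cell cannot be told apart.

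The promoters of 4 of the genes are shown to let the myelin and the satellite glia genes be compared by sequence. They are Mag, whose counts lay almost wholly in 3 Sst libraries, Apoe and Fabp7, the satellite glia genes, and Pmp22, the most abundant gene, at a pair of its start sites. Each window holds 250 bases before and 50 bases from the annotated start, 5′ to 3′ on the strand of the gene. Capitals mark the hexamers ACAAAG and ACAATG on either strand, the core of sites bound by SOX factors, the family of Sox10. Sequences are from RefSeq on GRCm38.p6, whose promoter table matched 5 of the 8 genes. Mbp, Sox10 and Cdh19 were not among them.
Mag, chr7:30914814-30915113, minus strand: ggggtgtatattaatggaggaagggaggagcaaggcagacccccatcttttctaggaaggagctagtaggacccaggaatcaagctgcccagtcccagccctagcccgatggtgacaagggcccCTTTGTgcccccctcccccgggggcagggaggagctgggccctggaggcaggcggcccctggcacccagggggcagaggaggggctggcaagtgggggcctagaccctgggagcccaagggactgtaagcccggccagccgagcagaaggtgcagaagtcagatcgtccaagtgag
Apoe, chr7:19699139-19699438, minus strand: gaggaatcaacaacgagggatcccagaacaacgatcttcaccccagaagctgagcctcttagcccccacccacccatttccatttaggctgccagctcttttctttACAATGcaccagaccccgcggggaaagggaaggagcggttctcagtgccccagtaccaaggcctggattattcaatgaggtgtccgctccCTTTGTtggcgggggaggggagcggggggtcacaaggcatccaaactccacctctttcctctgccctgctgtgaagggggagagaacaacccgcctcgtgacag
Fabp7, chr10:57784673-57784972, plus strand: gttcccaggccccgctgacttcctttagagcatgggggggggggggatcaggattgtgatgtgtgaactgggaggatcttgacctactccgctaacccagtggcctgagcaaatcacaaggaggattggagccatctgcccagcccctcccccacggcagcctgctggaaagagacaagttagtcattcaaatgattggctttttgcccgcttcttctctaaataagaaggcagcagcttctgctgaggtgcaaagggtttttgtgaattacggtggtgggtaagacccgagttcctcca
Pmp22, earliest start, chr11:63128732-63129031, plus strand: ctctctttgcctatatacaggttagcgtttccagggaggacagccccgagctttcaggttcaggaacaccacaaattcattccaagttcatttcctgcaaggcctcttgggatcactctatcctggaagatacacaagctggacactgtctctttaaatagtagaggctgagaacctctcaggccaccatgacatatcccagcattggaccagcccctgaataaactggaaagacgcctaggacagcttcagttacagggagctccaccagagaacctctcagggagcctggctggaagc
Pmp22, later start, chr11:63132319-63132618, plus strand: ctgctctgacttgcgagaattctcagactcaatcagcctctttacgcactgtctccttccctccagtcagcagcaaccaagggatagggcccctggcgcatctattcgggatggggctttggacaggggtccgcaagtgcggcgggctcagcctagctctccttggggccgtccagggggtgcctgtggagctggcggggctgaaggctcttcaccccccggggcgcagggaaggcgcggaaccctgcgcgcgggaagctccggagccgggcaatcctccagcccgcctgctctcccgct
The Mag window held 1 hexamer, ACAAAG on the opposite strand, and the Apoe window held 2, ACAATG on the strand of the gene and ACAAAG on the opposite one. None of the printed Fabp7 and Pmp22 windows held either. Of all 12 windows of the 5 matched genes, 3 held a hexamer: the 2 printed here and a Mag window that overlaps the printed one and holds the same site. The other 2 Apoe starts and 1 further Mag start held none, nor did the Prx window. As background, 28.6% of the 32851 promoter windows of that source held one. A match is a run of letters and does not show that a factor bound there.

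All 8 genes had counts, at levels that ran from near the counting floor to among the highest in the data. Levels are given in CPM, a gene's counts over all counts of its library on a fixed scale, with TMM scaling between libraries (trimmed mean of M-values). To compare genes, CPM was divided by the exon length of each gene in kilobases. On that scale Pmp22 stood at a mean of 164 CPM per kilobase, above 99.2% of the 11239 tested genes with a known length. Fabp7 followed at 58.9 (above 96.8%), Apoe at 21.0 (88.4%) and Mbp at 12.8 (80.6%). Sox10 stood at 2.10 (34.1%), Cdh19 at 1.04 (17.4%), Prx at 0.931 (15.4%) and Mag at 0.428 CPM per kilobase. The ranges over the 8 libraries overlapped between each pair of neighbours in this order except Mbp and Sox10. Mbp ran from 4.87 to 20.3 and Sox10 from 0.731 to 4.13 CPM per kilobase.

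The 8 genes together took 0.0466% to 0.0636% of all counts in Sst samples and 0.0559% to 0.0980% in Trpv1 samples. Without Pmp22, the other 7 took 0.0200% to 0.0301% and 0.0125% to 0.0373%. By contrast, 14 pan-neuronal genes such as Snap25, a protein of vesicle release, took 1.10% to 1.60% and 0.792% to 1.18%. The groups overlapped in each of these sums.

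**Figure D1:**
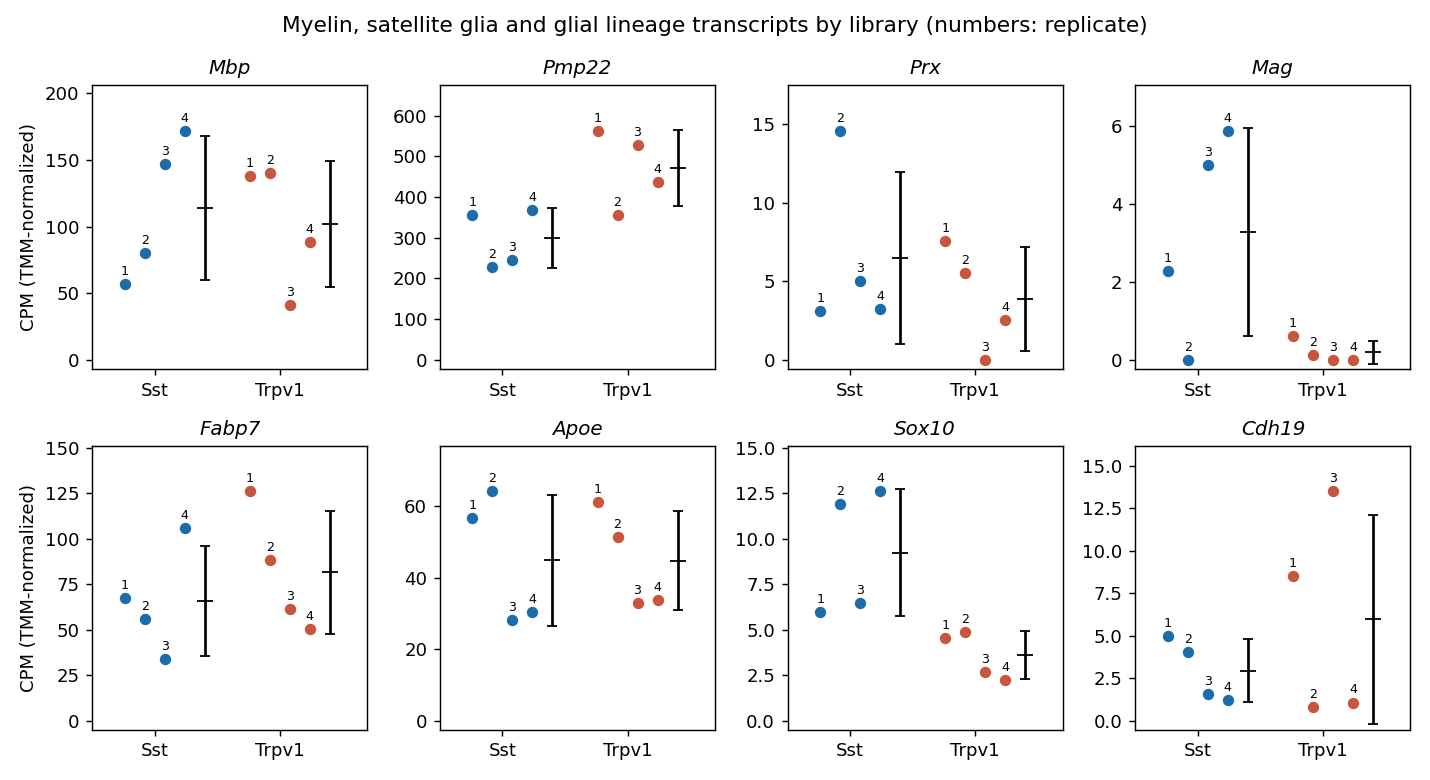
CPM of each of the 8 genes (vertical axes, TMM-normalized, linear from 0) in the 4 Sst and the 4 Trpv1 libraries, numbered by replicate, with the mean and SD of each group as black bars. The groups overlap for every gene except Sox10, and Trpv1 replicate 3 is lowest for Mbp and highest for Cdh19.

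The 4 myelin genes did not share 1 order of libraries. Mbp encodes myelin basic protein, which binds the inner faces of the myelin membrane together, and its gene also makes Golli transcripts outside myelin, which gene counts do not separate (GRCm38 chromosome 18, 82475146 to 82585637, plus strand). Mbp stood at 56.9, 80.4, 147 and 172 CPM in Sst replicates 1 to 4. It stood at 138, 140.3, 41.2 and 88.3 CPM in Trpv1 replicates 1 to 4. Its extremes, 4.18-fold apart, were Sst replicate 4 and Trpv1 replicate 3, and the groups overlapped throughout.

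Pmp22 encodes peripheral myelin protein 22, a membrane protein of compact myelin that other cell types also make (chromosome 11, 63128982 to 63159547, plus strand). Pmp22 stood at 357, 227, 245 and 369 CPM in Sst replicates 1 to 4, and at 563, 356, 528 and 437 CPM in Trpv1 replicates 1 to 4. The 3 highest libraries were Trpv1 libraries, and Trpv1 replicate 2 lay within the Sst range. Pmp22 had the smallest spread of the 8 genes within genotypes, an SD of 0.33 on the log2 CPM scale, and 11.1% of tested genes had a smaller one. Among the 276 tested genes within 0.5 log2 units of its level, 67.8% had a smaller one.

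Prx encodes periaxin, a scaffold of the myelinating Schwann cell membrane (chromosome 7, 27499324 to 27520214, plus strand). Prx stood at 3.09, 14.6, 5.00 and 3.26 CPM in Sst replicates 1 to 4. It stood at 7.55, 5.50, 0 and 2.55 CPM in Trpv1 replicates 1 to 4. The 0 counts in Trpv1 replicate 3 allow a level of up to 0.381 CPM, taking 3 counts as the limit. Sst replicate 2 alone stood far above the other Sst libraries.

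Mag encodes myelin-associated glycoprotein, an adhesion protein on the myelin surface that faces the axon (chromosome 7, 30899176 to 30914873, minus strand). Mag held 23, 0, 54 and 65 counts in Sst replicates 1 to 4, and 6, 1, 0 and 0 counts in Trpv1 replicates 1 to 4. Together, 142 counts lay in the Sst and 7 in the Trpv1 libraries, a ratio of 17.2 after scaling (95% exact binomial interval 8.13 to 43.6, counting error only). The groups still overlapped, because Sst replicate 2 held 0 counts, which allows up to 0.327 CPM. Mag reached the minimum count of the filter in too few libraries to be tested among all genes. In the 7 alternative fits that did include it, the adjusted p ran from 0.0676 to 0.294.

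Among satellite glia genes, Fabp7 and Apoe were present in every library. Fabp7 lies on chromosome 10 (57784881 to 57788450, plus strand). Its levels were 67.3, 55.7, 33.6 and 106 CPM in Sst replicates 1 to 4. Its levels were 126, 88.4, 61.4 and 50.2 CPM in Trpv1 replicates 1 to 4. The highest library was Trpv1 replicate 1 and the lowest Sst replicate 3, 3.75-fold apart.

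Apoe encodes apolipoprotein E, which macrophages make as well as satellite glia (chromosome 7, 19696109 to 19699188, minus strand). Apoe stood at 56.8, 64.2, 28.1 and 30.4 CPM in Sst replicates 1 to 4, and at 61.2, 51.4, 32.9 and 33.8 CPM in Trpv1 replicates 1 to 4. In each genotype replicates 1 and 2 stood above replicates 3 and 4. Whether the same number in both genotypes marks the same picking session could not be told. Beside it, 14 genes of macrophages took 0.000586% to 0.00187% of counts in the Sst and 0.000741% to 0.00418% in the Trpv1 libraries. Of these 14, 3 passed the filter on low counts, Cd74, Lyz2 and Mrc1, with at most 129, 124 and 37 counts in a library, and 1, the complement gene C1qa, had 0 counts in all 8. The part of macrophages in the level of Apoe was not tested.

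The glial lineage genes were low. Sox10, the transcription factor of the neural crest glial lineage (chromosome 15, 79154908 to 79165240, minus strand), stood at 5.98, 11.9, 6.49 and 12.6 CPM in Sst replicates 1 to 4. It stood at 4.55, 4.86, 2.67 and 2.23 CPM in Trpv1 replicates 1 to 4. Each Sst library stood above each Trpv1 library, which Sox10 alone of the 7 tested genes showed, and 11.1% of all tested genes had no overlap between genotypes.

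Cdh19, a cadherin of Schwann cell precursors and adult glia (chromosome 1, 110888326 to 110977584, minus strand), stood at 4.98, 4.03, 1.58 and 1.18 CPM in Sst replicates 1 to 4. It stood at 8.49, 0.767, 13.5 and 1.06 CPM in Trpv1 replicates 1 to 4. Trpv1 replicates 1 and 3 stood above every Sst library, and Trpv1 replicates 2 and 4 below every one. The highest was 17.5-fold above the lowest, the widest range among the 6 genes with counts in every library.

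The genotype comparison asks whether either labelled population carried more glial transcript. None of the 7 tested genes passed in either direction, where 6.35% of all 11828 tested genes did, 3.04% higher and 3.31% lower in the Sst libraries (edgeR quasi-likelihood test, Benjamini-Hochberg adjusted p under 0.05). At an unadjusted p under 0.05 the count was 1 of 7 in edgeR, beside 20.5% of all genes. At an adjusted p under 0.05, 0 of 7 passed in DESeq2 and in limma voom as well, where Pmp22 had adjusted p = 0.0578 and 0.0695. The median log2 fold change, Sst over Trpv1, was −0.01 for the 7 genes and 0.01 for all genes tested.

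Pmp22 came nearest to the threshold, with a mean of 299.6 ± 74.0 CPM against 471 ± 93.2 CPM (Sst, then Trpv1; SD, n = 4 each) and a fitted log2 difference of −0.65 (SE 0.215, adjusted p = 0.0724 by edgeR). Without Sst replicate 4 it passed (−0.77, edgeR adjusted p = 0.0440), and over all 18 alternatives its adjusted p ran from 0.0440 to 0.238 with the same sign. Sox10 averaged 9.24 ± 3.49 against 3.58 ± 1.32 CPM, a log2 difference of 1.37 (SE 0.684, adjusted p = 0.264 by edgeR), positive under all 18 alternatives. Cdh19 stood at 2.94 ± 1.85 and 5.94 ± 6.15 CPM (log2 difference −1.03, SE 0.839, adjusted p = 0.536 by edgeR), a value that was −0.34 without Trpv1 replicate 3. Prx stood at 6.49 ± 5.48 and 3.90 ± 3.31 CPM (0.65, SE 0.800, edgeR adjusted p = 0.714), and at −0.06 on the log2 scale without Sst replicate 2.

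Mbp, Fabp7 and Apoe had fitted differences smaller than their standard errors. Mbp averaged 114 ± 54.4 against 102 ± 47.0 CPM (SD, n = 4 each), a log2 difference of 0.17 (SE 0.354, adjusted p = 0.849 by edgeR). Fabp7 stood at 65.7 ± 30.3 and 81.5 ± 33.7 CPM (−0.31, SE 0.352, edgeR adjusted p = 0.682). Apoe stood at 44.9 ± 18.3 and 44.8 ± 13.9 CPM (−0.01, SE 0.372, edgeR adjusted p = 0.989). The signs of these 3 values turned under 3, 3 and 8 of the 18 alternatives, and Apoe stood at 0.00 under 1 more. With counts simulated at the spread of these libraries, the test recovered 6% of the genes set 2-fold apart and 27% of those set 4-fold apart. Those genes were a small part of all tested genes, drawn once at random, and the simulation gave 35 calls, against 751 in the data. The adjusted p depends on the share of genes that differ, so recovery in the data may not be the same. The recovery at the levels of Mbp, Fabp7 and Apoe was not tested, so the lack of a call does not show equal levels.

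**Figure D2:**
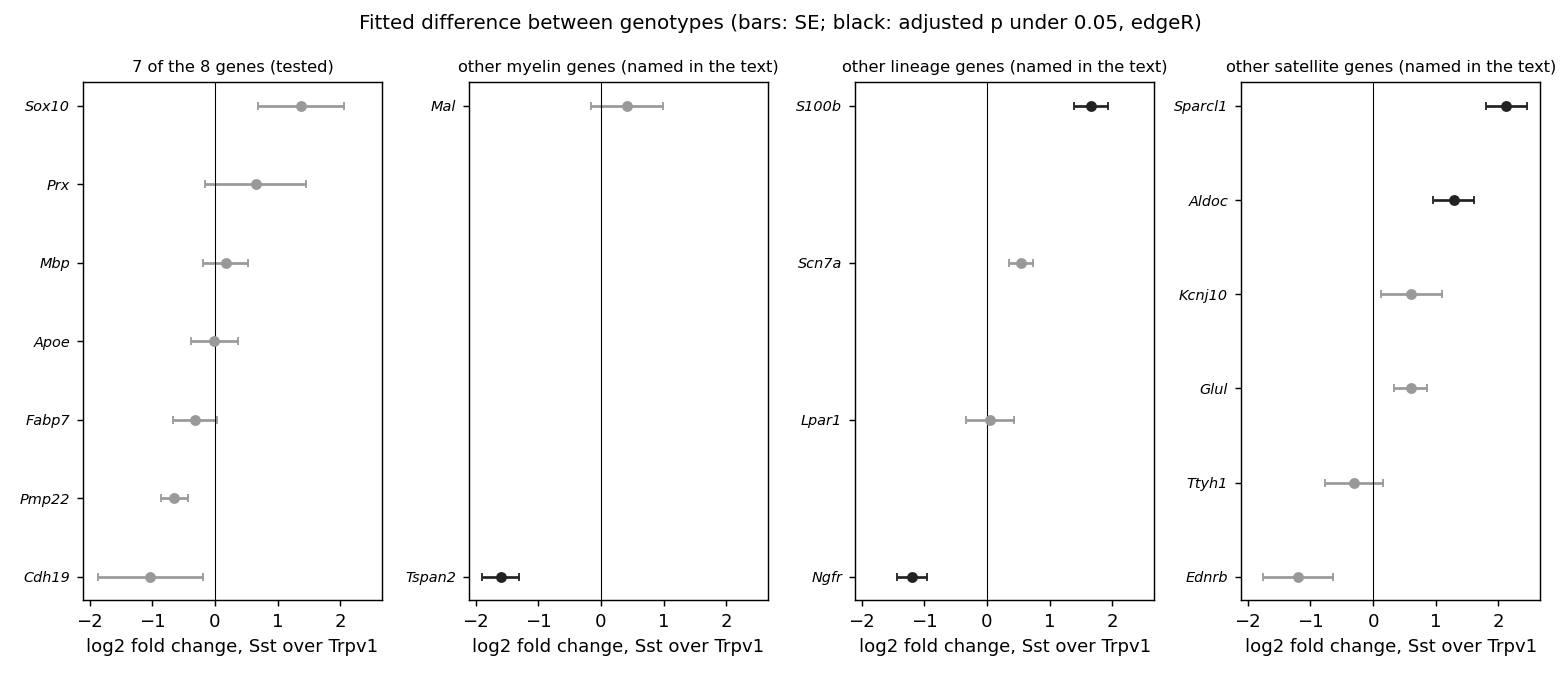
Log2 fold change, Sst over Trpv1 (horizontal axes, points with SE bars), of the 7 tested genes and of those genes of 3 other glial lists that the text names, with black points for edgeR adjusted p under 0.05. None of the 7 genes is black, and 5 of the other glial genes are: Tspan2 and Ngfr lower, and S100b, Sparcl1 and Aldoc higher in the Sst libraries.

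Other genes of myelin and glia were counted beside the 8. Over all tested genes, the background for these lists, 3.04% were higher and 3.31% lower in the Sst libraries. The median log2 fold change over all tested genes was 0.01. Whether a list differed from this background was not tested. Of 13 tested myelin genes outside the set, 1 was lower in the Sst libraries and 12 did not pass, with a median log2 fold change of −0.76. The lower one was Tspan2, a tetraspanin, at 51.2 ± 16.5 and 155 ± 33.9 CPM (SD, n = 4 each; log2 difference −1.60, SE 0.293, adjusted p = 0.00104 by edgeR). Pmp2, a lipid-binding protein gene of peripheral myelin named after its values were seen, had 0 counts in all libraries.

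Of 9 tested lineage genes outside the set, 1 passed as higher in Sst, 1 as lower, and 7 passed in neither direction, with a median of −0.29. The calcium-binding protein gene S100b, made by glia and by large sensory neurons, was higher (192 ± 38.8 and 60.5 ± 15.4 CPM, log2 difference 1.66, adjusted p = 0.000278 by edgeR). The neurotrophin receptor gene Ngfr, also made by sensory neurons, was lower (291 ± 107 and 666 ± 148 CPM, log2 difference −1.20, adjusted p = 0.00249 by edgeR). Scn7a, the most abundant gene of this list, stood at 901 ± 145 and 621 ± 166 CPM and did not pass. In the 6 libraries that held Xist, an RNA made from an inactive X, the call of Ngfr was lost (edgeR adjusted p = 0.113).

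Of 15 tested satellite glia genes outside the set, 2 were higher in the Sst libraries and 13 did not pass, with a median of 0.04. Sparcl1, a matricellular protein gene, stood at 162 ± 45.1 and 37.0 ± 15.4 CPM (log2 difference 2.13, adjusted p = 0.000131 by edgeR). Aldoc, an aldolase, stood at 92.6 ± 18 and 37.7 ± 14.4 CPM (1.29, edgeR adjusted p = 0.0185), a call lost without Sst replicate 3 or Trpv1 replicate 2, among 4 of 18 alternatives. Kcnj10, named after its values were seen, the potassium channel of satellite glia, stood at 53.1 ± 27.3 and 35.7 ± 35.2 CPM, and Glul, glutamine synthetase, at 288 ± 119.9 and 190.2 ± 58.8 CPM (edgeR adjusted p = 0.532 and 0.202). The astrocyte-type filament gene Gfap, also named so, held at most 12 counts in any library.

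Myelin and satellite glia genes did not vary together across the 8 libraries to an extent this number can show. Pearson's r of log2 CPM (prior count 2) was computed for all 28 pairs of the 8 genes, with two-sided exact permutation tests. It was positive in 17 pairs and ran from −0.66 to 0.62, with a median of 0.15. Over the 69944878 pairs of all tested genes the median was 0, with quartiles of −0.30 and 0.30. None of the 28 pairs had an unadjusted p under 0.05, by Pearson's r or by Spearman's rho, and the lowest adjusted p was 0.618 for r and 0.711 for rho.

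Of the 16 pairs of a myelin with a satellite or lineage gene, 9 were positive, with a median r of 0.07 and a range from −0.66 to 0.58. Within the myelin genes 3 of 6 pairs were positive (median −0.01), and within the satellite and lineage genes 5 of 6 (median 0.18). After the mean of each genotype was subtracted, the 3 medians were 0.11, 0.21 and 0.36, and that of all 28 pairs 0.28, beside 0 for all pairs of tested genes. No pair reached an r of 0.7 in the 8 libraries, where 3.72% of all gene pairs did.

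**Figure D3:**
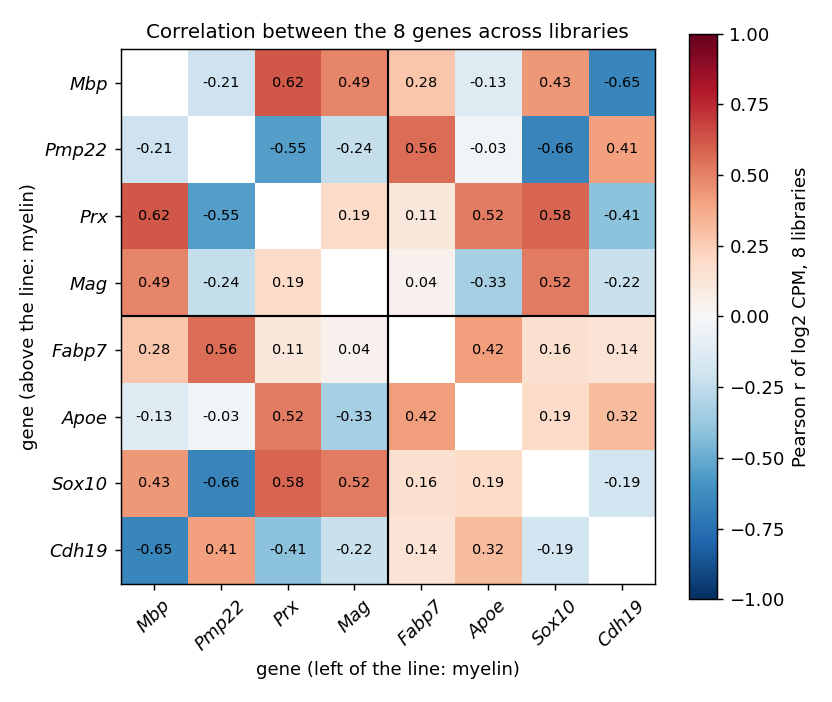
Pearson's r of log2 CPM over the 8 libraries for each pair of the 8 genes, written in each cell and coloured from −1 (blue) to 1 (red), with lines that divide myelin from satellite and lineage genes. Cells of both signs lie in the myelin block and in the block between the sets, from −0.66 for Pmp22 with Sox10 to 0.62 for Mbp with Prx.

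The highest r was that of Mbp with Prx, 0.62 (exact permutation p = 0.137, adjusted p = 0.618), with a rho of 0.36 (exact permutation p = 0.389, adjusted p = 0.839). It rested on the 2 libraries farthest from the median of Mbp, Sst replicate 1 and Trpv1 replicate 3, and was −0.34 without them. The lowest was that of Pmp22 with Sox10, −0.66 (exact permutation p = 0.0785, adjusted p = 0.618), with a rho of −0.64 (exact permutation p = 0.0962, adjusted p = 0.711). It was −0.58 without Trpv1 replicate 1 and Sst replicate 2, and −0.11 after genotype means were subtracted. Mbp with Cdh19 gave −0.65 (exact permutation p = 0.0963, adjusted p = 0.618), with a rho of −0.62 (exact permutation p = 0.115, adjusted p = 0.711), and −0.19 without Sst replicate 1 and Trpv1 replicate 3.

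The satellite glia pair Fabp7 and Apoe gave an r of 0.42 (exact permutation p = 0.296, adjusted p = 0.720) and a rho of 0.31 (exact permutation p = 0.462, adjusted p = 0.862). Without Sst replicate 3 and Trpv1 replicate 1 the r was −0.19. Fabp7 and Sox10 gave 0.16 over all libraries (exact permutation p = 0.697, adjusted p = 0.867), with a rho of 0.10 (exact permutation p = 0.840, adjusted p = 0.905), and 0.51 without Sst replicate 3 and Trpv1 replicate 1. After genotype means were subtracted their r was 0.72. In both genotypes the replicate with the most Fabp7 was among the 2 with the most Sox10.

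**Figure D4:**
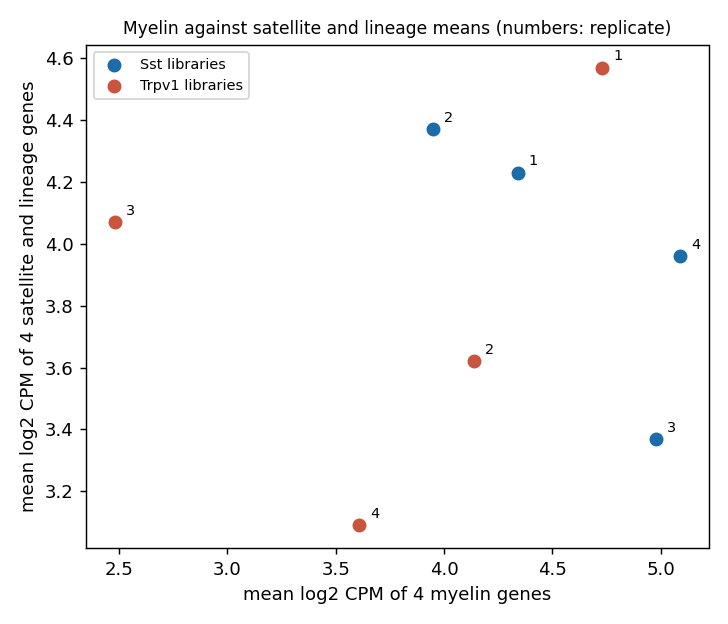
Mean log2 CPM of the 4 myelin genes (horizontal axis) against that of Fabp7, Apoe, Sox10 and Cdh19 (vertical axis) in each library, numbered by replicate. The points show no common rise (r = 0.04). Trpv1 replicate 3, with 0 counts of the low genes Prx and Mag, lies far left at 2.48. Sst replicates 3 and 4 lie right at 4.98 and 5.09.

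Averaged over each set, the myelin mean ran from 2.48 log2 CPM in Trpv1 replicate 3 to 5.09 in Sst replicate 4. The satellite and lineage mean ran from 3.09 in Trpv1 replicate 4 to 4.57 in Trpv1 replicate 1. Their correlation over the 8 libraries was 0.04, given as a description. The difference of the means, myelin minus satellite and lineage, was 1.60 in Sst replicate 3 and 1.14 in Sst replicate 4, and −1.59 in Trpv1 replicate 3. In the other 5 libraries it lay between −0.42 and 0.52. Each mean weights its genes equally, so the low genes Prx and Mag count as much as Mbp and Pmp22 in these differences. Where Prx or Mag held 0 counts, as both did in Trpv1 replicate 3, the prior count set their value. By share of all counts, the myelin genes of Trpv1 replicate 3 took 0.0468%. That was above Sst replicates 1 to 3 (0.0425%, 0.0328% and 0.043%) and below Sst replicate 4 and each other Trpv1 library.

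By rank over the 8 libraries, with 1 as the highest, Trpv1 replicate 1 had the best mean rank of the 8 genes, 2.75. It was highest for Pmp22 and Fabp7. Sst replicate 4 followed at 3.38 and was highest for Mbp, Mag and Sox10. Trpv1 replicate 4 had the worst mean rank, 6.12. Trpv1 replicate 3 was lowest or joint lowest for Mbp, Prx and Mag, and highest for Cdh19 and second for Pmp22.

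Within the Trpv1 libraries, 5 of the 7 tested genes (Mbp, Prx, Fabp7, Apoe and Sox10) stood higher in both replicates 1 and 2 than in either of replicates 3 and 4, a pattern that 15.8% of all tested genes showed. The split was noticed after the values were seen. The count of Xist was 0 in both Trpv1 replicates 1 and 2, against 12659 and 7994 in replicates 3 and 4. Genes of fibroblasts, which the ganglion capsule and nerve contain, took 0.0356% and 0.0442% of counts in Trpv1 replicates 1 and 2 and 0.00747% and 0.0107% in replicates 3 and 4. All 4 Sst libraries held counts of Xist. Y-linked genes (Ddx3y, Uty, Kdm5d and Eif2s3y) held 825 and 860 counts in Trpv1 replicates 1 and 2. In every other library, Sst and Trpv1, they held 0. Mitochondrial protein genes took 9.04% of the counts in Trpv1 replicate 3 and 3.21% to 5.15% in the other 7 libraries. Genes of pituitary hormones, such as Prl and Gh, took 0.189%, 0.177%, 0.135% and 0% in Trpv1 replicates 1 to 4, 0.0464% in Sst replicate 2 and at most 0.000394% in the other Sst libraries. The part of sex, other cells or tissues, or RNA quality in the levels of the 8 genes was not tested. With a term for Xist in the fit, the fitted differences of Mbp, Prx, Fabp7 and Apoe on the log2 scale were 0.81, 2.17, 0.24 and 0.42, and none passed (edgeR adjusted p = 0.338, 0.399, 0.821 and 0.702).

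**Figure D5:**
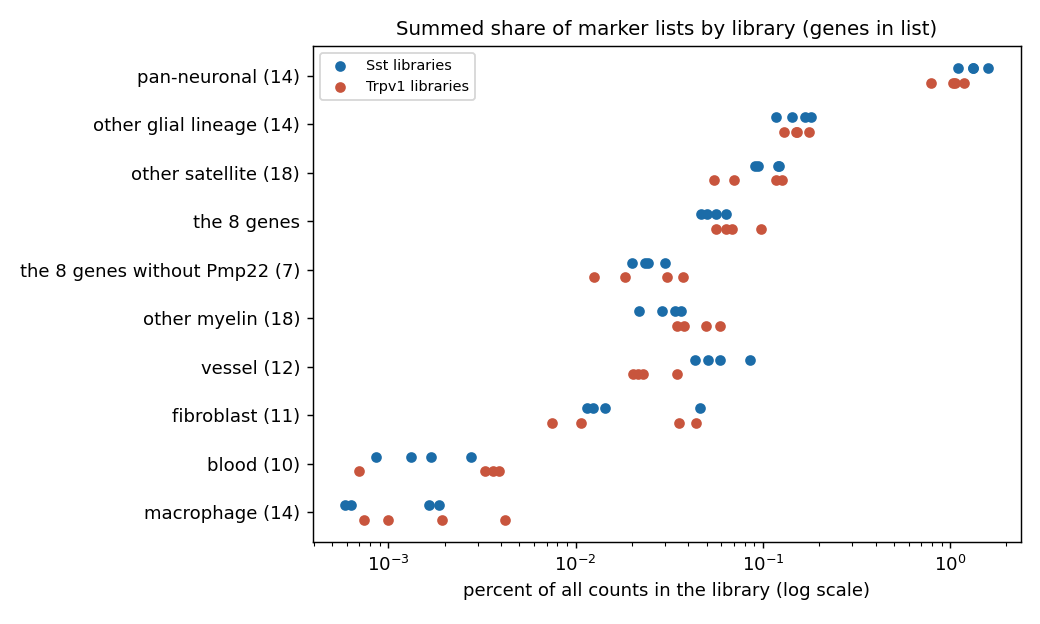
Percent of all counts of a library (horizontal axis, log scale) taken by lists of marker genes, with the number of genes in brackets, in the 4 Sst (blue) and 4 Trpv1 (red) libraries. The 8 genes lie between 0.0466% and 0.0980%, pan-neuronal genes about 1% and macrophage genes at 0.00418% or less.

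Genes whose levels ran most like those of the 7 tested genes were sought among the 6981 tested genes whose log2 CPM averaged 3 or more. Pearson's r over the 8 libraries was the measure. Among the closest were AU040320 and Ciz1 for Mbp (r of 0.962 and 0.928), and for Pmp22 Lrrc8b, Fundc1 and Gpr35 (0.983, 0.953 and 0.952). For Prx they were Junb, Hsdl1 and Lars2 (0.970, 0.950 and 0.949), and for Fabp7 Megf10, N6amt1 and Pqlc3 (0.965, 0.957 and 0.943). For Apoe they were Xbp1, Dazap2 and Gosr1 (0.919, 0.913 and 0.898), for Sox10 Ring1, Kctd9 and Supt16 (0.968, 0.956 and 0.950), and for Cdh19 Gpr137c and Mki67 (0.989 and 0.963). None of these genes was in the lists of other glial genes. Those lists are short, so a gene outside them, such as Megf10, may still be made by glia. With 8 libraries and so many candidates such values are reached by many genes, so they are given as a description.

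Of 25 other glial genes among those candidates, the one most like Fabp7 was Lpar1, a lysophosphatidic acid receptor gene (r = 0.92), and the one most like Pmp22 was Ednrb, an endothelin receptor gene of satellite glia (0.90). The one most like Apoe was Ttyh1 (0.87), and Glul was closest to Sox10 and Mbp (0.83 and 0.76). Mal was closest to Prx (0.58) and Ednrb to Cdh19 (0.52). The median r with the 25 genes was 0.31 for Prx, 0.30 for Fabp7, 0.20 for Apoe, 0.11 for Sox10, 0.08 for Cdh19, 0.05 for Mbp and −0.12 for Pmp22. With all candidates it lay between −0.02 and 0.01 for each of them.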

How the data were processed

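Per the labels' protocols, RNA of the hand-picked cells (PicoPure) was turned into amplified cDNA (Ovation RNA-seq V2) and sequenced as Nextera XT libraries. Each picking session held 1 sample of each genotype, per the labels. The authors deposited raw counts of reads per gene symbol, 1 column per sample, made with bcl2fastq 2.17, Trimmomatic 0.33 and featureCounts on GRCm38, per the submitters' processing notes. The sources used here name neither the aligner nor the annotation or strand setting, and reads of a gene and of one on its opposite strand may mix. Annotated genes opposite Mbp and Prx held 30 and 41 counts over all libraries. 0 columns were left unused.

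Low genes were removed by edgeR's filterByExpr (minimum count 10), and libraries were scaled by TMM. Genotypes were compared with edgeR 4.0.16 (R 4.3.3), quasi-likelihood test with bias-adjusted, robust dispersion and group as sole term, adjusted over all 11828 genes. Alternatives were RLE scaling, 2 other filters, non-robust dispersion, the legacy edgeR method, DESeq2 1.42.0, limma 3.58.1 voom with sample weights, the replicate number as a block, a term for Xist, the 6 libraries with Xist, and each library left out. The legacy method and the 6 libraries were chosen after seeing the data. Log2 CPM used a prior count of 2. Exon lengths and coordinates are from GENCODE M21 on GRCm38. Intervals and floors of 3 counts cover counting error only. No pair of libraries was alike within counting error. Simulated counts tested the fit: of 35 calls, 2 were false and 0 had the wrong sign.

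The genes and lists were chosen with earlier results of these data known. Named genes were the 8, the called and the most abundant members of each other list, and the 3 genes most like each tested gene (predicted genes left out), except some that are not reported here. The spelling Adgre1 matched no symbol, and that gene was counted as Emr1.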

Additional observations from a re-analysis of the deposited data

Results flagged for a closer look

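In 16 groups of 4 libraries, the highest or lowest value of each of the 8 genes was compared with the rest of its group. Only Prx in the Sst libraries stood apart: Sst replicate 2 held 14.6 CPM, and the gap to the next library was 0.834 of the whole range, above the critical value of 0.829. Chance flags about 1 in 20 groups, so 1 of 16 is near that share.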

How the results depend on the processing

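The count of the 7 tested genes that passed, 0, held under every alternative on all 8 libraries, also where the filter let Mag in or left Cdh19 out. With single libraries left out it ran from 0 to 1, the 1 being Pmp22 without Sst replicate 4. The 751 calls over all genes became 435 with a term for Xist, 493 with the legacy edgeR method and 305 in the 6 libraries with Xist. Without single libraries they ran from 452 to 747, with 500, 452 and 487 without Sst replicate 1, Sst replicate 3 and Trpv1 replicate 3. Fewer libraries were fitted there; the cause of the other shifts was not tested. The median r of the 28 pairs, 0.15, was 0.28 with genotype means subtracted and 0.04 to 0.24 with single libraries left out, lowest without Trpv1 replicate 4 and highest without Sst replicate 2. The r of the set means, 0.04, was 0.19 with CPM by total count and -0.05 with genotype means subtracted. It ran from -0.18 to 0.24 with single libraries left out (-0.18 without Trpv1 replicate 4, -0.12 without Trpv1 replicate 1, 0.24 without Sst replicate 3 and without Trpv1 replicate 3), so its sign rested on single libraries. With the replicate number as a block, edgeR called 572 genes and 0 of the 7. Whether the numbers pair the libraries could not be told, because no pair across genotypes deviated together. Deviations of same-numbered libraries correlated at -0.0296 to 0.0316 and those of the other pairs at -0.0375 to 0.0491. Of the 8 libraries, 2 correlated best with their own number. Fold changes of genes that did not pass turned sign under some settings. With limma voom Mbp was -0.15 and Apoe 0.06. With a term for Xist Fabp7 was 0.24 and Apoe 0.42, and in the 6 libraries with Xist 0.27 and 0.44. Without a filter Apoe was 0.02, and with the legacy method 0.00. With single libraries left out Mbp ran from -0.10 to 0.39, Fabp7 from -0.65 to 0.01, Apoe from -0.21 to 0.20 and Prx from -0.06 to 1.25. Levels of Prx, Mag, Sox10 and Cdh19 rest on at most 139 counts in a library, which limits what their correlations can show.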

Other observations

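Genes known from fibroblasts, vessels and blood were also counted, at uneven levels. The source of these transcripts was not tested. Col1a1, a collagen gene of fibroblasts, held 18, 138, 199 and 1419 counts in Sst replicates 1 to 4 and 530, 593, 31 and 36 counts in Trpv1 replicates 1 to 4. Col3a1, a further fibrillar collagen, held 40, 33, 54 and 982 counts and 330, 456, 10 and 272 counts in the same libraries. Sst replicate 4 thus stood highest for both collagens, and it was also highest of all libraries for Mbp, Mag and Sox10. It was not highest for Pmp22, Prx, Fabp7, Apoe or Cdh19. Its Apoe (30.4 CPM) stood above that of Sst replicate 3 alone, and its Cdh19 (1.18 CPM) was the lowest of the Sst libraries. Over all tested genes 6.35% passed between genotypes, 3.04% higher and 3.31% lower in the Sst libraries. Of 8 tested fibroblast genes 0 passed between genotypes (adjusted p by edgeR from 0.210 to 0.965), and 0 of 3 tested macrophage genes did. Of 7 tested vessel genes 1 was higher in the Sst libraries, the regulator of G protein signalling Rgs5 (547 ± 161 and 215 ± 83.8 CPM, SD, n = 4 each; log2 difference 1.35, adjusted p = 0.00137 by edgeR). Its call was lost when Xist entered the fit, and also when only the 6 Xist-positive libraries were fitted (adjusted p up to 0.0957, log2 difference down to 0.97). Of the endothelial markers, Flt1 held at most 623, Pecam1 139, Cdh5 131 and Cldn5 9 counts in a library. Rgs5 is listed with markers of the cells around vessels and held 1136 to 6981 counts. The others of that kind were low: Pdgfrb held at most 150, Myh11 99, Tagln 16 and Acta2 5 counts in a library. The collagens and these markers were named after their values were seen. Of 5 tested blood genes 1 was lower in the Sst libraries, S100a9, a call lost in 10 of 17 alternatives (edgeR adjusted p = 0.0285), among them the removal of any single library except Trpv1 replicates 2 and 3.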
